A study of Mus musculus with 8 samples.

Results

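The genes described here encode the matrix metalloproteinases (MMPs), their tissue inhibitors (TIMPs) and the related ADAM, ADAMTS and ADAMTS-like proteins. They were chosen by symbol alone: Mmp with a number, Timp1 to Timp4, Adam with a number, and Adamts or Adamtsl with a number. Of 17097 genes with a value, 62 met this rule: 18 Mmp, 3 Timp, 22 Adam, 14 Adamts and 5 Adamtsl genes. RefSeq lists 78 mouse symbols that meet it, and the other 16, Timp4, Mmp15 and Adamts2 among them, were not analysed here. The 62 genes have 107 probe sets of their own, and each gene is represented by the probe set with the highest mean over all arrays.

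Islets of Langerhans from 20-week-old mice were profiled on 8 Affymetrix arrays, 2 in each of 4 groups. The groups were untreated wild type, wild type given 4-phenylbutyrate (PBA), untreated hIAPP transgenic, and hIAPP transgenic given PBA. The hIAPP transgene encodes human islet amyloid polypeptide, a beta-cell hormone that forms amyloid, and the strain name FVB/N-Tg(Ins2-IAPP)RFHSoel/J places it under the insulin 2 promoter. That strain name stands on the wild-type arrays too, where the genotype label reads wild type. PBA, a chemical chaperone, was given in water at 1 g/kg/day from the age of 8 weeks for 12 weeks. Nothing in the labels tells if a group's arrays hold separate animals or pools of islets, so the p-values measure only the spread between these samples.

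MMPs are zinc-dependent proteases, secreted or anchored in the membrane, that cleave collagens, elastin and other matrix proteins. TIMPs bind their active sites, and TIMP2 also bridges MMP14 to the precursor of MMP2, which MMP14 then activates at the cell surface. ADAMs are membrane proteins, many of which release growth factors, cytokines and receptors from the cell surface, and several others lack a working catalytic site. ADAMTS enzymes are secreted and cleave proteoglycans, procollagens or von Willebrand factor, while ADAMTS-like proteins share their ancillary domains without the protease. In the islet these proteins act on the basement membrane around capillaries and on the capsule.

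Values are on the log2 scale, so a difference of 1 is a doubling of signal. Over 23 non-specific control probe sets the median was 3.1, and their 95th percentile, 4.68, is used below as the background level. A gene that lay above it on no array is called not above background, and a difference from a group below it is a difference in signal that may understate the change in RNA. All p-values come from limma fitted to all genes and arrays, adjusted by Benjamini-Hochberg over the 17097 genes, and a gene passed the test at an adjusted p under 0.05. On the first PBA-treated wild-type array the median of the spiked hybridisation controls was 6.95, against 9.8 to 10.2 elsewhere. The array medians over all genes were 5.9 on both untreated hIAPP arrays and 5.7 on the other arrays. All 9 islet markers lay above background on every array. The median of 11 acinar markers, which come from exocrine tissue around the islet, was 9.3 on the first PBA-treated hIAPP array and 11 to 12.8 on the others. The second PBA-treated hIAPP array was the next lowest. With PBA in hIAPP islets the median acinar difference was -2.15, and Cela3b and Sycn passed as lower. Leaving out the first array of that group therefore does not remove the acinar difference from this comparison. Results without the 2 doubted arrays, the first PBA-treated wild-type and the first PBA-treated hIAPP array, are given beside the counts.

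On mouse chromosome 9, 10 of the family's genes form an uninterrupted run, and 9 of them were measured, in the order Mmp13, Mmp12, Mmp1b, Mmp3, Mmp1a, Mmp10, Mmp8, Mmp20 and Mmp7. Only Mmp12 of these 9 passed a test in any comparison below. The 120 bases before the transcription start, from RefSeq on GRCm38.p6, are shown for 6 of them because neighbours with alike motifs gave unlike array values. Capitals mark TGANTCA, the AP-1 motif long described in MMP promoters, and TATAAA, the TATA box, both searched on both strands.
Mmp13 (chr9:7272394-7272513, plus strand): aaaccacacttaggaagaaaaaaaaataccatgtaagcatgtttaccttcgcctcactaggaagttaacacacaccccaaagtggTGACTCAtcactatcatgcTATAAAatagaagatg
Mmp12, upstream start (chr9:7344277-7344396, plus strand): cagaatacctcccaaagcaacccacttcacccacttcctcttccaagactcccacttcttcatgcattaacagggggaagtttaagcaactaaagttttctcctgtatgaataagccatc
Mmp12, downstream start (chr9:7347254-7347373, plus strand): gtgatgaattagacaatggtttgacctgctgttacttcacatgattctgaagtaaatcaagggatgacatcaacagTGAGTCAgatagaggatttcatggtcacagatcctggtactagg
Mmp3 (chr9:7445702-7445821, plus strand): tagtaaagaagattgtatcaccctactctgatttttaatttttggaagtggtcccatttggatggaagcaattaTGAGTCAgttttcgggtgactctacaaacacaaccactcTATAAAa
Mmp10 (chr9:7502222-7502341, plus strand): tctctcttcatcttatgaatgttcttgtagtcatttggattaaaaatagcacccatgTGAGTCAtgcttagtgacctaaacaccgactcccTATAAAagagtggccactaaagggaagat
Mmp8 (chr9:7558309-7558428, plus strand): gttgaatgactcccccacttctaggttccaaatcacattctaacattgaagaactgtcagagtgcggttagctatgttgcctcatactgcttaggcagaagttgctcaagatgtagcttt
Mmp7, upstream start (chr9:7691970-7692089, plus strand): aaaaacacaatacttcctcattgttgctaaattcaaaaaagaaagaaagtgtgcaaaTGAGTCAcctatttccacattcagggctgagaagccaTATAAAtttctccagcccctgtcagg
In the 250 bases before a start, 8 of the 9 genes held TGANTCA, all but Mmp8, against 6.75% of the 32851 mouse promoter windows in the table and 2 of the 27 other family genes found there. TATAAA was held by 7 of the 9, all but Mmp12 and Mmp8, against 12.4% of all windows. Another motif, AGGAAG (PEA3), which is not marked, lay in 6 of the 9 and in 29.5% of all windows. The first base of TGANTCA stood 35 bases before the start of Mmp13, 46 before that of Mmp3 and 63 before that of Mmp10 and the upstream start of Mmp7. In Mmp12 it stood 44 bases before the downstream start, and the upstream start had none in this window. The downstream start of Mmp7, which is not shown, had neither marked motif. A gene was counted if any of its listed starts held the motif, while the shares of all windows count each window. A match of letters is a description of the sequence, and which start these islets used was not measured. Of all 62 genes, 36 are in the promoter table, among them 11 of the 16 that rose in untreated hIAPP islets.

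Of the 8 genes that share TGANTCA, 6 lay above background on no array. Mmp13, the main collagenase of rodents, was at 3.0 to 3.5 over all 8 arrays. Mmp3 (stromelysin 1) was at 3.5 to 4.0 and Mmp10 (stromelysin 2) at 3.3 to 3.9. Mmp1a, Mmp1b and Mmp20 (enamelysin, the tooth enamel protease) were at 2.7 to 3.1, 3.1 to 3.4 and 3.0 to 3.4. Mmp8, the neutrophil collagenase, which has neither motif, was likewise at 3.0 to 3.6. So the genes with signal in the run were Mmp12 and Mmp7.

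In untreated hIAPP islets, 16 of the 62 genes were higher than in untreated wild type and none was lower. Over all genes tested, 7.77% passed as higher and 3.19% as lower in this comparison. The 16 were 3 MMPs, all 3 TIMPs, 4 ADAMs, 5 ADAMTS genes and 1 ADAMTS-like gene. The median log2 difference over the 62 genes was 0.18, and over all genes it was -0.05. The 2 arrays doubted above are in neither group compared here. Leaving them out changes none of these differences, only the estimate of the spread and its degrees of freedom. Without the 2 arrays doubted above, 2 of the 16 still passed, Mmp12 and Adamts5. Untreated wild type 1 and 2 left out in turn gave 9 and 7 genes, untreated hIAPP 1 and 2 gave 8 and 10, of which 7 and 9 were among the 16, and the 4 PBA-treated arrays 13 to 15, of which 13 or 14 were. Of the 16, Mmp12, Mmp14, Timp1, Timp2 and Adamts5 passed in all 8 of these fits. With each array shifted to one median over all genes, which lowers these differences by the gap between the array medians, all 16 passed. Mmp12 then differed by 3.05 and Timp3 by 0.70. Adamts16 and Mmp24, both at -0.15 before the shift, then passed as well, as lower.

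**Figure D1:**
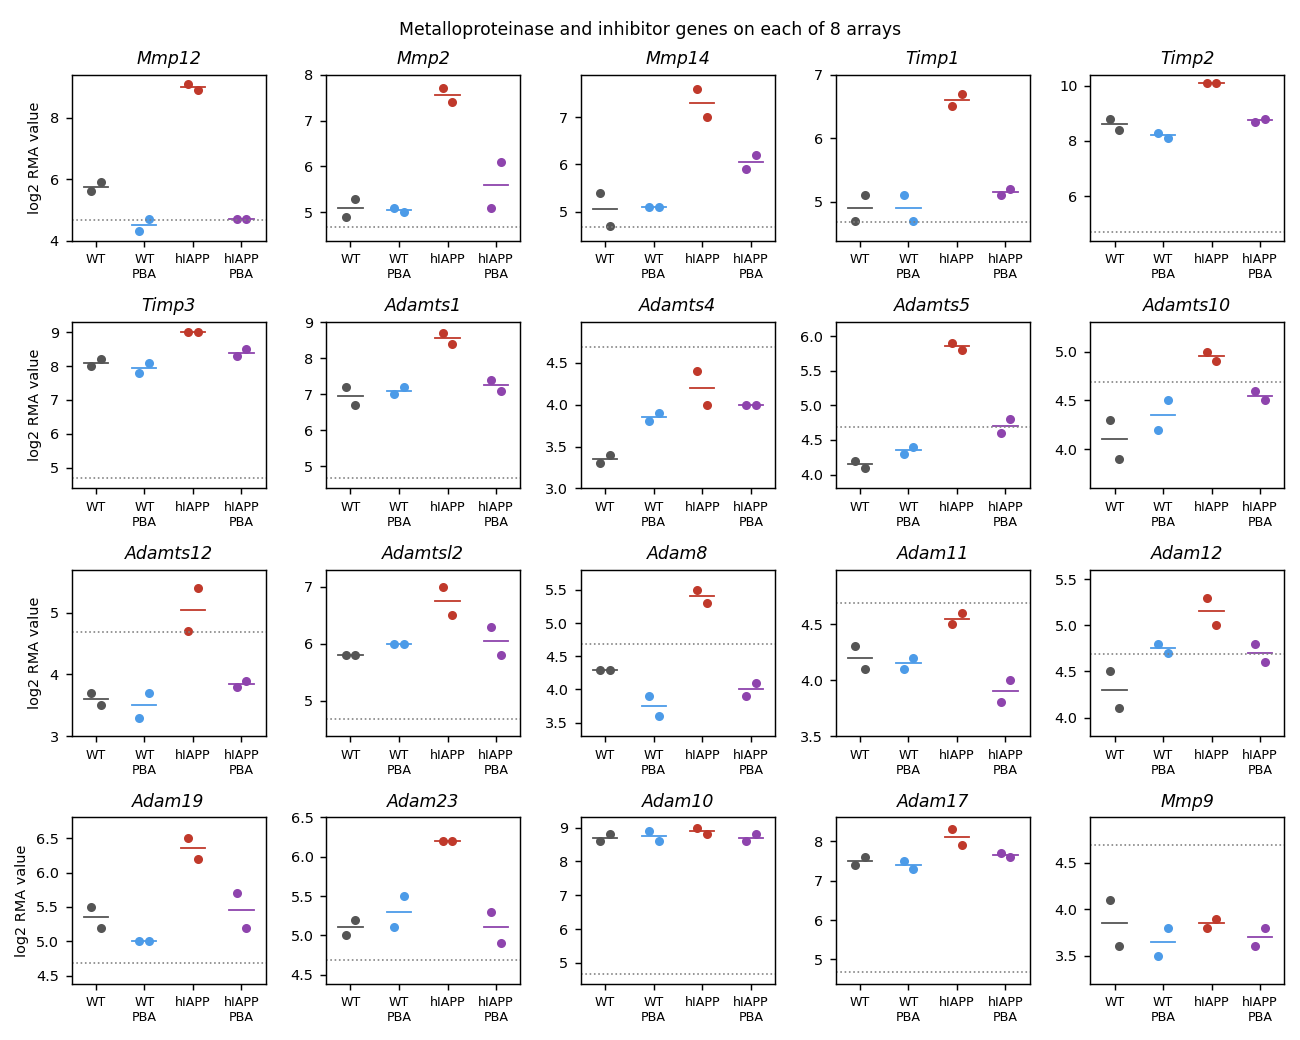
Log2 RMA values on each of the 8 arrays for the 17 genes that passed a test in any comparison and for Adam10, Adam17 and Mmp9. Points are arrays, bars are the mean of the 2 arrays of a group, and the dotted line is the background level of 4.68. Untreated hIAPP arrays lie above untreated wild-type arrays in every panel except those of Adam10 and Mmp9, where they overlap.

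Mmp12, macrophage elastase, degrades elastin and basement membrane proteins and is made largely by macrophages. Its values were 5.6 and 5.9 in untreated wild type, and 9.1 and 8.9 in untreated hIAPP. On PBA it read 4.3 and 4.7 in wild type and 4.7 on both hIAPP arrays. The transgenic islets without PBA thus stood far above the other 3 groups, and all 4 PBA arrays lay below all 4 untreated arrays. The difference between untreated genotypes was 3.25 (SE 0.17, limma adjusted p = 2.1e-04), a 9.51-fold rise in signal. The fall with PBA in hIAPP islets was -4.30 (limma adjusted p = 1.8e-04), and that in wild type -1.25 (limma adjusted p = 0.0423).

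Macrophage markers moved in the same comparisons. Of 12 such genes, 10 rose in untreated hIAPP islets and 10 fell with PBA in hIAPP islets, against 7.77% and 6.32% of all genes. Their median level was 6.3 and 6.4 in wild type, 5.9 and 5.95 in PBA-treated wild type, 8.75 and 8.4 in hIAPP, and 7.4 and 7.1 in PBA-treated hIAPP. Between the PBA-treated genotypes, 8 of the 12 markers were still higher in hIAPP, against 0.322% of all genes. They were Lyz2, Ms4a7, Cd68, Tyrobp, Fcer1g, Ctss, Adgre1 and Aif1. Mmp12 differed by 0.20 there (limma adjusted p = 0.6582). At 4.3 to 4.7 on the PBA arrays it was at or near background, where a remaining difference between genotypes may not show. Whether Mmp12 and the markers differed in their response was not tested. In whole islets, more cells of a type and more RNA in each cell cannot be told apart, and the part of cell numbers in these results was not tested.

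Mmp2, gelatinase A, cleaves basement membrane collagen and denatured collagens. Its values were 4.9 and 5.3 in wild type, 5.1 and 5.0 in PBA-treated wild type, 7.7 and 7.4 in hIAPP, and 5.1 and 6.1 in PBA-treated hIAPP. The hIAPP arrays stood above all others, and the second PBA-treated hIAPP array above the first. The transgene difference was 2.45 (SE 0.31, limma adjusted p = 0.0033) and the PBA difference in hIAPP -1.95 (SE 0.31, limma adjusted p = 0.0110). The call for PBA was lost when either PBA-treated wild-type array, either untreated hIAPP array or PBA-treated hIAPP 1 was left out. Mmp9, the other gelatinase, is common in neutrophils and lay at 3.5 to 4.1 on all 8 arrays, below background in every group.

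Mmp14, the membrane-type enzyme that activates pro-MMP2, read 5.4 and 4.7 in wild type and 5.1 on both PBA-treated wild-type arrays. It read 7.6 and 7.0 in hIAPP and 5.9 and 6.2 in PBA-treated hIAPP. It was 2.25 higher with the transgene (SE 0.27, limma adjusted p = 0.0027) and fell by 1.25 with PBA in hIAPP islets (SE 0.27, limma adjusted p = 0.0334). The PBA-treated hIAPP arrays still lay above every wild-type array, and this difference under PBA, 0.95, had an adjusted p of 0.2428 in limma. The call for PBA was lost when any 1 of the 4 hIAPP arrays or either PBA-treated wild-type array was left out. Another Mmp14 probe set, above background on 1 array only, gave a transgene difference of 0.45. The other 3 membrane-type genes, Mmp16, Mmp17 and Mmp24, differed by 0.05, 0.15 and -0.15 in the same comparison, and none passed.

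Mmp7, matrilysin, is a secreted protease of ductal and other glandular epithelia. It read 4.7 and 5.2 in wild type, 4.5 on both PBA-treated wild-type arrays, 6.8 and 6.2 in hIAPP, and 4.4 and 5.9 in PBA-treated hIAPP. The untreated hIAPP arrays were the highest, but the PBA-treated hIAPP arrays lay far apart, and neither the transgene difference of 1.55 (limma adjusted p = 0.0757) nor the PBA difference of -1.35 (limma adjusted p = 0.1270) passed. Without either PBA-treated hIAPP array, the transgene difference of Mmp7 did pass. Of 5 duct markers 1 passed, Muc1, which read 6.2 and 6.6 in hIAPP and 3.9 to 4.8 on the other arrays. The median level of the 5 was 6.2 and 6.6 in hIAPP and 3.9 to 4.8 elsewhere. These are the values given for Muc1, so this median is no reading apart from that gene. The median of the differences of the 5 genes was 0.00 both for the transgene and for PBA in hIAPP islets. Sox9 and Cftr lay above background on no array. Mmp11, another stromelysin, was 0.50 higher with the transgene (limma adjusted p = 0.0515), below background on every array. The 4 collagenases and the other MMPs did not pass in any comparison. The 2 probe sets of Mmp23 disagreed in size. The one that represents it gave 0.15 for the transgene and -0.50 for PBA in hIAPP islets. The second, at 4.7 and 3.4 in wild type and 5.1 and 4.9 in hIAPP, gave 0.95 and -1.20. With the mean of both sets Mmp23 did not pass in either comparison.

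Timp1, the inducible inhibitor, read 4.7 and 5.1 in wild type, 5.1 and 4.7 in PBA-treated wild type, 6.5 and 6.7 in hIAPP, and 5.1 and 5.2 in PBA-treated hIAPP. The hIAPP arrays stood apart from the other 3 groups, which overlapped or nearly so. The rise was 1.70 (SE 0.18, limma adjusted p = 0.0018) and the PBA difference in hIAPP was -1.45 (limma adjusted p = 0.0050), while that in wild type was 0.00.

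Timp2, the inhibitor that also takes part in MMP2 activation, read 8.8 and 8.4 in wild type, 8.3 and 8.1 in PBA-treated wild type, 10.1 on both hIAPP arrays, and 8.7 and 8.8 in PBA-treated hIAPP. It rose by 1.5 with the transgene (SE 0.15, limma adjusted p = 0.0013) and fell by 1.35 with PBA in hIAPP islets (limma adjusted p = 0.0035). All 5 Timp2 probe sets had the same direction, with transgene differences of 0.60 to 1.55. Timp3, which is bound to the matrix and also inhibits ADAM17, read 8.0 and 8.2 in wild type, 7.8 and 8.1 in PBA-treated wild type, 9.0 on both hIAPP arrays, and 8.3 and 8.5 in PBA-treated hIAPP. Its rise was 0.90 (limma adjusted p = 0.0072) and its fall with PBA -0.60 (limma adjusted p = 0.0444). That fall no longer passed once arrays were shifted to one median, nor when any 1 array was left out. The 4 Timp3 probe sets gave transgene differences of 0.65 to 0.90. Proteases and inhibitors thus rose on the same arrays, and the balance of their activities was not measured.

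Stellate cells and fibroblasts are known sources of Mmp2, Mmp14 and the TIMPs, and their markers moved with these genes. Of 10 such markers, 8 rose in untreated hIAPP islets and 7 fell with PBA in hIAPP islets, against 7.77% and 6.32% of all genes. Col1a2 and Pdgfra lay above background on no array. The median of the list was 5.7 and 5.8 in wild type, 5.95 and 5.55 in PBA-treated wild type, 8.25 and 8.05 in hIAPP, and 6.7 and 6.75 in PBA-treated hIAPP. Of 7 endothelial markers 6 rose and 6 fell in these comparisons, against the same shares of all genes. Their medians were 6.7 to 7.1 on the 6 arrays outside untreated hIAPP, and 8.3 and 8.2 on the untreated hIAPP arrays. The part of these cell types in the results was not tested.

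**Figure D2:**
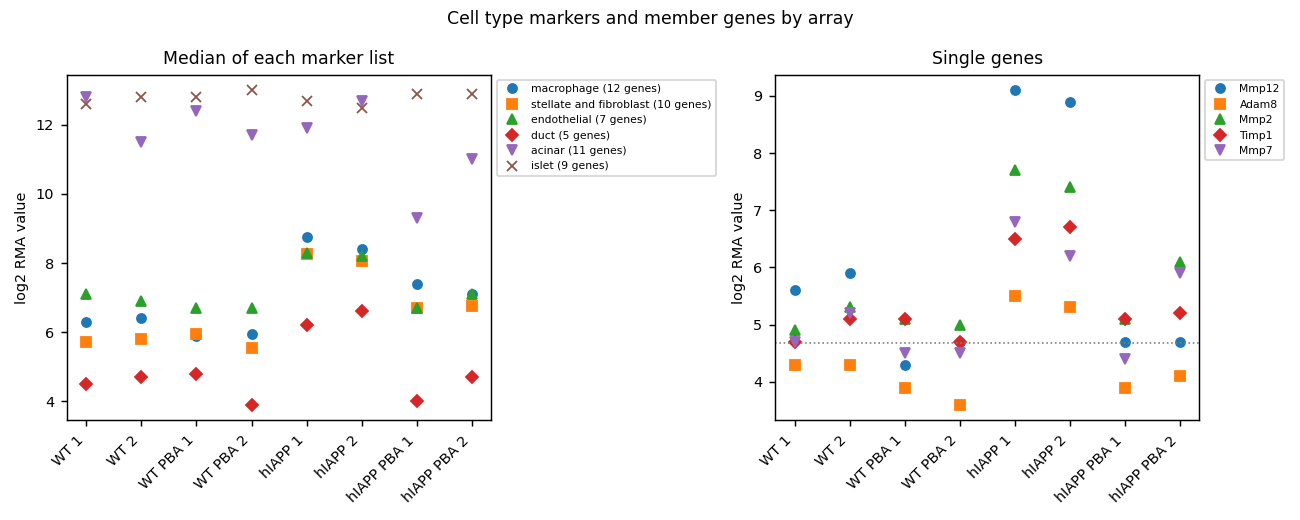
Log2 RMA values by array, with the median of each marker list on the left and single genes on the right. Macrophage, stellate and fibroblast, and endothelial lists and all 5 genes are highest on the 2 untreated hIAPP arrays, while the islet list stays between 12.5 and 13.0. The acinar list is lowest, at 9.3, on PBA-treated hIAPP 1 and next lowest on PBA-treated hIAPP 2.

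Among the ADAMTS proteases that cleave proteoglycans such as versican and aggrecan, Adamts1, Adamts4 and Adamts5 rose of 7 measured, against 7.77% of all genes. Adamts5 read 4.2 and 4.1 in wild type, 4.3 and 4.4 in PBA-treated wild type, 5.9 and 5.8 in hIAPP, and 4.6 and 4.8 in PBA-treated hIAPP. The hIAPP arrays were the only ones clearly above background, with 1 PBA-treated hIAPP array just above it. The rise was 1.70 (SE 0.11, limma adjusted p = 3.7e-04) and the fall with PBA -1.15 (SE 0.11, limma adjusted p = 0.0023). Of 4 Adamts5 probe sets, 3 gave rises of 1.05 to 1.70, and the fourth, at background on all arrays, gave 0.05.

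Adamts1, its neighbour on chromosome 16, read 7.2 and 6.7 in wild type, 7.0 and 7.2 in PBA-treated wild type, 8.7 and 8.4 in hIAPP, and 7.4 and 7.1 in PBA-treated hIAPP. Its rise was 1.60 (SE 0.20, limma adjusted p = 0.0033) and its fall with PBA -1.30 (SE 0.20, limma adjusted p = 0.0100). Adamts4 read 3.3 and 3.4 in wild type, 3.8 and 3.9 in PBA-treated wild type, 4.4 and 4.0 in hIAPP, and 4.0 on both PBA-treated hIAPP arrays. It passed the transgene test (0.85, limma adjusted p = 0.0099) with no array above background.

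Adamts9, a further proteoglycan-cleaving enzyme that is also needed for blood vessel and tissue remodelling, did not pass through the probe set that represents it (0.40, limma adjusted p = 0.1726). A second Adamts9 probe set read 4.3 and 3.9 in wild type, 4.5 and 4.3 in PBA-treated wild type, 5.8 and 5.4 in hIAPP, and 4.0 and 3.8 in PBA-treated hIAPP. The probe sets of this gene therefore disagreed in size, and with the mean of its 3 sets Adamts9 passed in both comparisons.

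Of the other ADAMTS genes, Adamts12 and Adamts10 rose. Adamts12, which cleaves cartilage oligomeric matrix protein, read 3.7 and 3.5 in wild type, 3.3 and 3.7 in PBA-treated wild type, 4.7 and 5.4 in hIAPP, and 3.8 and 3.9 in PBA-treated hIAPP. Only the untreated hIAPP arrays exceeded background. The rise was 1.45 (limma adjusted p = 0.0089) and the fall with PBA -1.20 (limma adjusted p = 0.0250). The call for PBA was lost when any 1 array was left out, and with the mean of its 2 probe sets. The second Adamts12 probe set, below background throughout, gave -0.15 for the transgene and 0.15 for PBA in hIAPP islets. Adamts10, which binds fibrillin microfibrils, read 4.3 and 3.9 in wild type, 4.2 and 4.5 in PBA-treated wild type, 5.0 and 4.9 in hIAPP, and 4.6 and 4.5 in PBA-treated hIAPP. It rose by 0.85 (limma adjusted p = 0.0172), while its PBA difference in hIAPP, -0.40, did not pass. A second Adamts10 probe set, below background throughout, gave 0.15 and -0.10 in these comparisons. Adamts3, the only procollagen N-proteinase measured, was below background throughout.

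Adamtsl2, which binds fibrillin and the latent TGF-beta complex, read 5.8 on both wild-type arrays, 6.0 on both PBA-treated wild-type arrays, 7.0 and 6.5 in hIAPP, and 6.3 and 5.8 in PBA-treated hIAPP. It rose by 0.95 (limma adjusted p = 0.0272), and its difference with PBA in hIAPP, -0.70, had an adjusted p of 0.0896. Of the other 4 ADAMTS-like genes, 3 lay above background on no array and Adamtsl3 on 1, untreated hIAPP 1, where it read 4.9 against 3.8 on untreated hIAPP 2.

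Of the 22 ADAM genes, 13 lay above background on no array, and 4 rose (18.2%, against 7.77% of all genes). Adam8, a sheddase of leukocytes, read 4.3 on both wild-type arrays, 3.9 and 3.6 in PBA-treated wild type, 5.5 and 5.3 in hIAPP, and 3.9 and 4.1 in PBA-treated hIAPP. It exceeded background on the untreated hIAPP arrays alone, with a rise of 1.10 (SE 0.14, limma adjusted p = 0.0035) and a fall with PBA of -1.40 (SE 0.14, limma adjusted p = 0.0024). Like Mmp12, it was lower on each PBA array than on any untreated array, although its difference in wild type, -0.55, did not pass (limma adjusted p = 0.2517).

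Adam19, which can shed neuregulins, read 5.5 and 5.2 in wild type, 5.0 on both PBA-treated wild-type arrays, 6.5 and 6.2 in hIAPP, and 5.7 and 5.2 in PBA-treated hIAPP. It rose by 1.00 (limma adjusted p = 0.0177) and fell with PBA by 0.90 (limma adjusted p = 0.0334). The call for PBA was lost when any 1 array was left out. A second Adam19 probe set, below background throughout, gave 0.10 for the transgene and -0.10 for PBA in hIAPP islets. Adam12, found in activated stellate cells and fusing muscle cells, read 4.5 and 4.1 in wild type, 4.8 and 4.7 in PBA-treated wild type, 5.3 and 5.0 in hIAPP, and 4.8 and 4.6 in PBA-treated hIAPP. It rose by 0.85 (limma adjusted p = 0.0199), and PBA left it 0.45 lower in hIAPP islets, which did not pass. With the mean of its 2 probe sets the fall with PBA passed. The second Adam12 set, below background throughout, gave 0.40 for the transgene and -0.50 for PBA in hIAPP islets.

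Adam23 and Adam11 are members without protease activity, known from nerve cells, where they bind LGI proteins. Adam23 read 5.0 and 5.2 in wild type, 5.1 and 5.5 in PBA-treated wild type, 6.2 on both hIAPP arrays, and 5.3 and 4.9 in PBA-treated hIAPP. It rose by 1.10 (limma adjusted p = 0.0091) and fell with PBA by the same amount (limma adjusted p = 0.0125). A second Adam23 probe set, above background on PBA-treated hIAPP 2 alone, gave a transgene difference of 0.60 and a PBA difference of 0.00, the other, below background throughout, gave 0.00 and -0.10, and the mean of the 3 sets fell by 0.40 with PBA. Adam11 read 4.3 and 4.1 in wild type, 4.1 and 4.2 in PBA-treated wild type, 4.5 and 4.6 in hIAPP, and 3.8 and 4.0 in PBA-treated hIAPP. It passed only for PBA in hIAPP islets (-0.65, limma adjusted p = 0.0198), below background on every array. Adam22, the third of this group, read 8.0 to 8.4 on all arrays and did not pass.

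The principal sheddases did not pass. Adam10, which cleaves Notch and amyloid precursor protein, read 8.6 and 8.8 in wild type, 8.9 and 8.6 in PBA-treated wild type, 9.0 and 8.8 in hIAPP, and 8.6 and 8.8 in PBA-treated hIAPP. Its groups overlapped, with a transgene difference of 0.20 (limma adjusted p = 0.4668). Adam17, which releases TNF and EGF-receptor ligands, read 7.4 and 7.6 in wild type, 7.5 and 7.3 in PBA-treated wild type, 8.3 and 7.9 in hIAPP, and 7.7 and 7.6 in PBA-treated hIAPP. The untreated hIAPP arrays were the highest, and the difference of 0.60 just missed the threshold (limma adjusted p = 0.0548), which it met with the filter on dim genes, with the mean of its 3 probe sets and with another variance model. Adam9 read 9.3 to 9.8 and Adam15 7.1 to 8.2 over all arrays, and neither passed in any comparison. The PBA difference of Adam15 was -0.50 in both genotypes. In hIAPP islets (limma adjusted p = 0.0896) it met the threshold with the mean of its 4 probe sets and with the other variance model. Those sets disagreed, with transgene differences of -0.40 to 0.65.

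**Figure D3:**
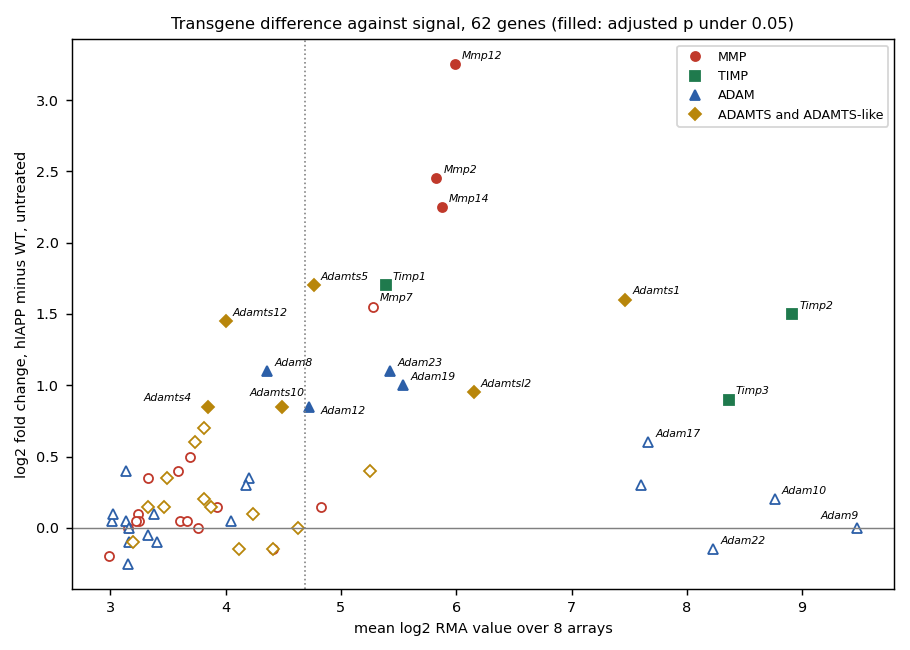
Log2 fold change between untreated hIAPP and untreated wild type (vertical) against the mean log2 RMA value over 8 arrays (horizontal) for the 62 genes, with filled symbols for the 16 that passed and a dotted line at the background level of 4.68. All filled symbols lie above 0, and most open symbols stand left of the line, between -0.25 and 0.70.

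PBA in hIAPP islets lowered 13 of the 62 genes and raised none. Over all genes 6.32% passed as lower and 1.78% as higher. The median difference over the 62 genes was -0.20, against 0.00 over all genes. With all 8 arrays, 23 of the 62 and 3930 of all 17097 genes had an unadjusted limma p under 0.05. Of the 13, 12 are among the 16 above, and the other is Adam11. This comparison shares the untreated hIAPP arrays with the transgene comparison, so a high value there raises the one difference and lowers the other. Adam12, Adamts4, Adamts10 and Adamtsl2 are the 4 raised genes that did not pass as lowered. Of these, Adam12 did pass with the mean of its probe sets, and Adamtsl2 with trend and robust variances.

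Without the 2 doubted arrays none of the 13 passed in limma, while 15 of the 62 genes had an unadjusted p under 0.05. Mmp12 alone passed when the acinar level was a covariate, and likewise with only the 4 arrays compared. With arrays shifted to one median, 12 of the 13 passed, all but Timp3. Adamts18, at 0.35 before the shift, then passed as higher. With either untreated wild-type array left out, 10 of the 13 still passed, and with either PBA-treated wild-type array 6 did. Without untreated hIAPP 1 or 2, 2 and 3 of the 13 passed, and without PBA-treated hIAPP 1 or 2, 3 and 5 did. Adamts15, Adamtsl3 and Mmp7, which are not among the 13, each passed in 1 of these fits. Mmp12 and Adamts5 passed in all 8 such fits.

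**Figure D4:**
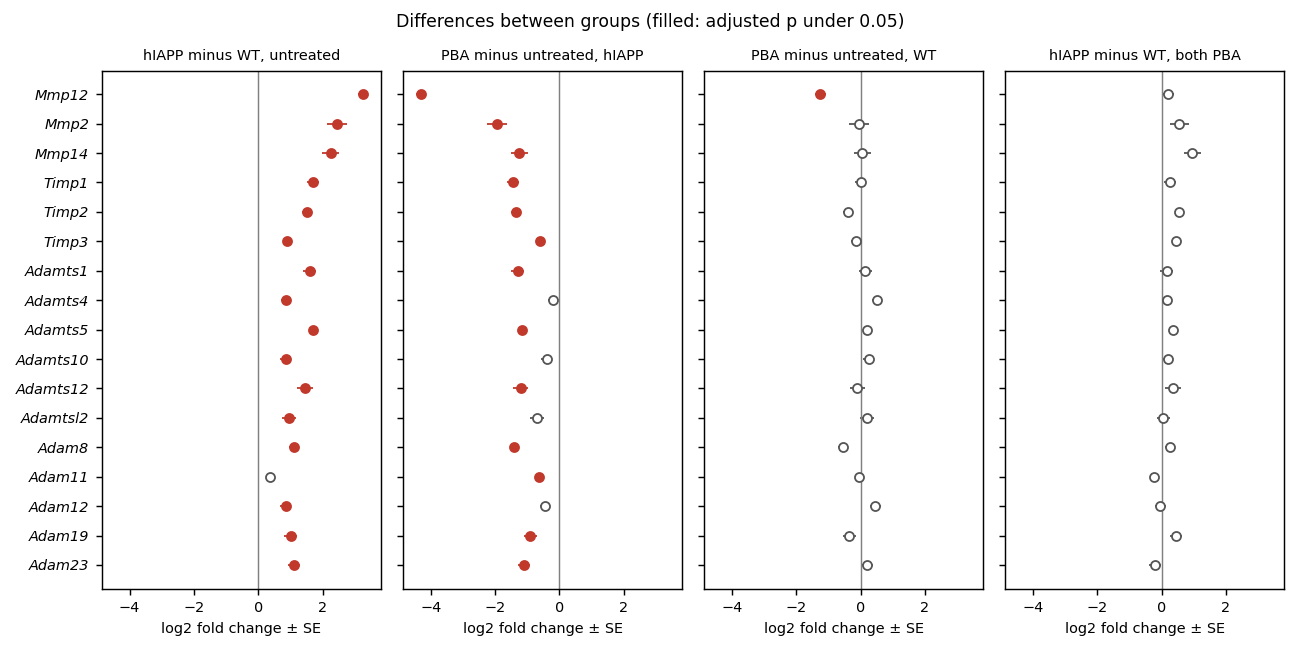
Log2 fold change with its standard error for the 17 genes that passed in any comparison, in 4 comparisons. Filled points passed at a limma adjusted p under 0.05: 16 to the right of 0 in the first panel, 13 to the left in the second, Mmp12 alone in the third and none in the fourth.

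In wild-type islets PBA moved 1 of the 62 genes past the threshold, Mmp12, against 0.292% of all genes in either direction. Its call was lost when any 1 of the 8 arrays was left out. An unadjusted limma p under 0.05 was found for 9 of the 62 genes and for 1800 of all 17097 genes. The 13 genes lowered by PBA in hIAPP islets can be read here on arrays that comparison did not use: 8 were lower, 4 higher and 1 the same, with a median of -0.05. Over all 1080 genes lowered in hIAPP islets, 684 were lower here and the median was -0.10.

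Between PBA-treated hIAPP and PBA-treated wild type, none of the 62 genes passed in limma, against 0.421% of all genes. Unadjusted limma p-values under 0.05 were found for 6 of the 62 and for 2072 of all 17097 genes. These 6 were Mmp14 (0.95), Timp2 (0.55), Adamtsl4 (0.50), Timp3 (0.45), Adamts5 (0.35) and Mmp20 (-0.30), of which Mmp20 and Adamtsl4 are below background. Mmp14 and Timp2 passed in limma with a variance trend and robust setting. Of the 16 genes raised without PBA, 14 had a positive difference under PBA, and Adam12 (-0.05) and Adam23 (-0.20) had a negative one. The median of the 16 was 0.25, and over all 1329 raised genes 946 were positive with a median of 0.20.

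The response to PBA differed between genotypes for 3 of the 62 genes, all with the larger fall in hIAPP islets. Over all genes 1.69% passed with a lower and 0.269% with a higher PBA difference in hIAPP than in wild type. For Mmp12 the difference of differences was -3.05 (SE 0.24, limma adjusted p = 0.0076), for Adamts5 -1.35 (SE 0.16, limma adjusted p = 0.0168) and for Timp1 -1.45 (SE 0.26, limma adjusted p = 0.0437). Adamts1, with -1.45, and Adam23, with -1.30, came next and did not pass (limma adjusted p of 0.0553 and 0.0568). None of the 3 passed when any 1 of the 8 arrays was left out, and none with the acinar level as a covariate. Timp1 also did not pass with arrays shifted to one median, nor Adamts5 with the mean of its probe sets. Adamts1 and Adam23 passed with the filter on dim genes, and Adamts1 and Adamts9 with the mean of the probe sets. With trend and robust variances Adamts1, Adam23, Adamts12, Mmp14, Mmp2 and Timp2 passed as well. Wild-type signal left little room for a fall: Adamts5 was below background on all 4 wild-type arrays, Timp1 read 4.7 to 5.1 there, and Mmp12 was at or near background on the PBA arrays of both genotypes.

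Partners of these enzymes were read from 5 lists. Of 18 measured activators and surface inhibitors of MMPs, 2 rose and 1 fell in untreated hIAPP islets, shares near the 7.77% and 3.19% of all genes. Plat, tissue plasminogen activator, read 7.1 and 6.8 in wild type, 7.9 and 8.3 in hIAPP, and 7.4 and 7.2 in PBA-treated hIAPP. It rose by 1.15 (limma adjusted p = 0.0057) and was the one gene of the list to fall with PBA (-0.80, limma adjusted p = 0.0319). Reck, a membrane-anchored MMP inhibitor, rose by 0.85, and Spock2, a matrix proteoglycan, fell by 0.45. Prss1, a trypsinogen of acinar cells, read 6.6 and 9.7 on the untreated hIAPP arrays and 4.4 to 5.3 on all others, and did not pass.

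Of 8 genes for the trafficking of ADAM10 and ADAM17, Rhbdf1 and Tspan14 rose and also fell with PBA, against 7.77% and 6.32% of all genes. Rhbdf1, an inactive rhomboid that carries ADAM17 through the secretory pathway, read 5.3 and 5.0 in wild type, 5.2 and 5.0 in PBA-treated wild type, 6.5 on both hIAPP arrays, and 5.5 and 5.8 in PBA-treated hIAPP. Its rise was 1.35 (limma adjusted p = 0.0022). Tspan14, a tetraspanin that leads ADAM10 to the surface, rose by 0.50 (limma adjusted p = 0.0284). Tspan17 (0.50) and Rhbdf2 (0.45) did not pass.

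Among 26 ligands and receptors known to be shed from cells, 11 rose in untreated hIAPP islets (median 0.38), 9 fell with PBA in hIAPP islets, and none moved the other way. Over all genes 7.77% passed as higher and 6.32% as lower in these 2 comparisons. Cd44, the hyaluronan receptor, rose by 1.65, Tnfrsf1b, a TNF receptor, by 2.25, Icam1, a leukocyte adhesion molecule, by 1.80 and Kitl, the ligand of KIT, by 1.00. These 4 also fell with PBA by 1.30, 1.75, 2.30 and 1.05. With Hbegf they were the 5 of the list whose PBA difference was lower in hIAPP than in wild type, against 1.69% of all genes. Tnf itself read 3.6 to 4.2, below background.

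Of 17 substrates and partners of ADAMTS enzymes, Ltbp1, Col5a1, Vwf, Col1a1 and Col3a1 rose, against 7.77% of all genes. Col5a1, a fibril collagen chain, read 4.9 and 4.6 in wild type, 7.4 and 7.2 in hIAPP, and 5.3 and 5.7 in PBA-treated hIAPP, a rise of 2.55 (limma adjusted p = 4.9e-04). Vwf, von Willebrand factor of endothelial cells, rose by 2.10 and fell with PBA by 3.20. All but Col1a1 fell with PBA in hIAPP islets, against 6.32% of all genes. For Ltbp1, Col5a1 and Vwf the PBA difference was lower in hIAPP than in wild type, against 1.69% of all genes. Vcan, versican, a substrate of ADAMTS1, ADAMTS4 and ADAMTS5, read 3.4 to 4.3, not above background. Of 19 other metalloproteinases, Ece2 (0.65) and Anpep (0.70) rose and Enpep fell with PBA (-0.70), again near the shares of all genes, 7.77% and 6.32%. Pappa2, which cleaves IGF-binding proteins, was the one gene of that list whose response to PBA differed between genotypes (-0.80, limma adjusted p = 0.0462), with a PBA difference of 0.60 in wild type and of -0.20 in hIAPP. Ide, the insulin-degrading enzyme, which also cleaves amylin, read 8.4 to 8.8 and did not pass.

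For Mmp12, Mmp2 and Timp1 the genes with the most similar values over the 8 arrays were listed by Pearson's r, as a description, since all points share arrays and groups. Closest to Mmp12 were Enc1 (0.995), Pnp, Serpinb6b, Jam3 and Ccl21b (0.992), and the closest family gene was Adam8 (0.975). Closest to Mmp2 were Pdgfc (0.997), Sema3c, Stra6l, Chrdl1 and Ptprg, with Adamts5 (0.965) first in the family. Closest to Timp1 were Gucy1a1 (0.990), Fkbp7, Foxc1, Svep1 and Cat, with Mmp2 (0.960) first in the family. Pdgfc, a growth factor for fibroblasts, read 3.4 and 3.6 in wild type, 6.1 and 5.6 in hIAPP, and 3.5 and 4.4 in PBA-treated hIAPP, so that, as for Mmp2, the second PBA-treated hIAPP array was above the first.

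In all, 45 of the 62 genes passed in no comparison, and 32 of these lay above background on no array. Their transgene differences ran from -0.25 to 1.55, the highest being that of Mmp7. Above background on all arrays were 6 of the 45, Adam9, Adam10, Adam15, Adam17, Adam22 and Adamts9, with differences of -0.15 to 0.60.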

How the data were processed

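The authors deposited log2 values of 8 Affymetrix arrays, 1 per probe set and array, rounded to 1 decimal. RMA and the affy package were named for them, per the submitters' processing notes. RMA sets all arrays to 1 distribution, so a change shared by most genes is not seen. With 2 arrays in a group, their number limits the precision.

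Control probe sets and those with several symbols or none were left out, and symbols came from the platform annotation. The members, lists and tests were chosen with earlier results of these data known. Group means of all 8 arrays were fitted with limma 3.58.1 in R 4.3.3 (two-sided, 4 residual and 3.27 prior degrees of freedom, prior SD 0.13) and 5 contrasts adjusted separately over 17097 genes. The fit was tested on simulated data. Genes named with every array are those past the threshold in any contrast and Mmp2, Mmp9, Mmp14, Timp1 to Timp3, Adam10 and Adam17; up to 4 genes per partner list have the smallest p, and others, such as Mmp7, Adamts9, Muc1, Tnf, Vcan, Ide, Prss1 and Pdgfc, were chosen after their values were seen. Which promoter motifs are marked, and the chromosome 9 windows shown in place of windows of other members, were settled after the matches were seen. Alternatives changed the arrays, the filter, the probe set, the scaling, the variance model or a covariate. Tables were made with pandas 2.3.3 in Python 3.11.15. The split of ADAMs by a zinc-binding motif was not made.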

Additional observations from a re-analysis of the deposited data

Results flagged for a closer look

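For 3 genes the PBA difference was lower in hIAPP islets than in wild type by limma's test of the difference itself. The PBA difference in hIAPP minus that in wild type was -3.05 for Mmp12, -1.45 for Timp1 and -1.35 for Adamts5. Mmp12 was lower on the PBA arrays of both genotypes, while Timp1 and Adamts5 had PBA differences of 0.00 and 0.20 in wild type. Adamts5 was below the background level of 4.68 on all 4 wild-type arrays, so that a fall there could not be measured. Timp1 was at 4.7 to 5.1 on those arrays, and Mmp12 at 4.3 to 4.7 on the PBA arrays of both genotypes, so the background limits the falls of these genes too. None of the 3 passed when any 1 of the 8 arrays was left out.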

How the results depend on the processing

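With the first array of each PBA-treated group left out together, 2 genes passed for the transgene and 0 for PBA in hIAPP, for PBA in wild type and for the interaction, where 15, 6 and 9 genes had an unadjusted limma p under 0.05. From only the arrays compared, 2, 1 and 0 passed for the transgene, PBA in hIAPP and PBA in wild type. With the acinar level as covariate, 1 passed for PBA in hIAPP, 0 for PBA in wild type and 0 for the interaction (8 and 13 at an unadjusted p under 0.05). Leaving out 1 array gave 7 to 15 for the transgene, 3 to 10 for PBA in hIAPP, and 0 to 0 for PBA in wild type and for the interaction (7 to 10 and 11 to 19 at an unadjusted p under 0.05). Such a fit of 1 array in a group assumes that it varies like the others. In the fit of all 8 arrays, 3930 of 17097 genes had an unadjusted limma p under 0.05 for PBA in hIAPP. For PBA in wild type the count was 1800, and for the interaction 2777. Unadjusted counts over all genes were not made for the alternative fits. The filter on dim genes gave 5 for the interaction, and trend and robust variances gave 9 there and 2 for the transgene under PBA. No other setting moved a count by more than 1.5 times, except the block. No difference that passed changed sign under any setting, whereas some that did not pass did, such as that of Mmp9 for PBA in hIAPP (-0.15, and up to 0.17). The replicate block gave 16, 12, 0, 0 and 2 genes for the transgene, PBA in hIAPP, PBA in wild type, the transgene under PBA and the interaction, with Mmp14 lost for PBA in hIAPP and Timp1 for the interaction. The numbers do not pair the arrays, since replicate differences correlated at -0.14 to 0.10 between groups. Rounding and the background limit what dim genes show.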
